A study of Rattus norvegicus with 6 samples.

Results

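The ADAM and ADAMTS genes encode metalloproteases that cut proteins at the cell surface and in the extracellular matrix. They were read in whole-lung RNA from rats as the rows whose symbol is Adam, Adamts or Adamtsl followed by a number, with at least 60 counts summed over the 6 libraries. Of 45 such symbols among the 22835 genes of the table, 36 met the minimum: 14 ADAM, 17 ADAMTS and 5 ADAMTS-like genes. The other 9 (Adam18, Adam1b, Adam21, Adam32, Adam3a, Adam4, Adam6, Adamts18 and Adamts20) had between 1 and 43 counts each in all. In 3 female rats aged 12 weeks, called ND1_cKO here, Cre recombinase under the promoter of the surfactant protein gene Sftpc switched on LSL-DdCBE-ND1, an editor that converts C to T in the mitochondrial complex I gene ND1. The 3 controls were age-matched ND1LSL littermates per the series description, while their sample label reads WT; all 6 rats had the SD background. Cre and the active editor differ between the genotypes together with the edit, and their effects cannot be told apart. Cre acts in cells that use the Sftpc promoter, mainly alveolar type 2 cells, whereas most of the genes described below are known from stroma, vessels and leukocytes as well. In whole lung, fewer cells of a type and less RNA per cell cannot be told apart.

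ADAM proteins are anchored in the membrane and release the outer part of other membrane proteins, such as growth factors, cytokines, adhesion molecules and Notch receptors, by a cut called shedding. ADAMTS proteins carry thrombospondin repeats in place of the membrane anchor, are secreted, and cleave proteoglycans, procollagens, fibrillin-associated proteins or von Willebrand factor. ADAMTS-like proteins keep the thrombospondin repeats but lack the protease domain. In the lung the families are known for growth factor release by epithelium and leukocytes, for the turnover of versican, and for trimming collagen precursors in scar tissue.

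Libraries held between 28669995 and 38303274 counts. ND1, the targeted gene, gave 3679, 3427 and 3737 CPM (its share of the library, scaled with TMM factors) in ND1_cKO replicates 1, 2 and 3, against 2679, 2432 and 3083 CPM in control replicates 1, 2 and 3. All ND1_cKO libraries lay above all controls (log2 fold change 0.40 ± 0.12 SE, edgeR adjusted p = 0.125, DESeq2 0.0144). Read counts do not show the edited base, so these values do not check the labels. Whether the edit altered the level of ND1 was not tested. Surfactant and other type 2 markers were abundant in every library, summing to between 20611 and 33220 CPM in ND1_cKO and between 28060 and 32526 CPM in controls over 7 genes. Single genes went apart. Sftpc gave 8809, 10376 and 5301 CPM in ND1_cKO and 15473, 12903 and 13651 CPM in controls (log2 fold change -0.78). Lamp3 (-0.47) was also below every control, while Sftpa1 and Napsa (0.63 each) were above every control. Sftpb, Abca3 and Slc34a2 overlapped, and none of the 7 passed in edgeR. ND1_cKO replicate 3 lay farthest from the controls on the first principal component, at 65.2, against 25.3 and 13.7 for ND1_cKO replicates 1 and 2 and between -38.3 and -31.1 for controls. The 7 markers of activated fibroblasts summed to 4762, 2446 and 7350 CPM in ND1_cKO replicates 1, 2 and 3, against 1531, 1166 and 1891 CPM in controls. Col3a1 and Col1a1 were the largest parts in ND1_cKO. Postn was level, at 390 ± 89.7 CPM in ND1_cKO and 389 ± 134 CPM in controls, and Fap overlapped the controls. The other 5 lay above every control in all ND1_cKO libraries, and none of the 7 passed in edgeR. Macrophage markers, of which Marco was under 1 CPM in every library and Chil3 had no row, summed to between 1855 and 2233 CPM in ND1_cKO and between 951 and 1663 CPM in controls. Gpnmb was the largest part, at 1170, 1288 and 1078 CPM in ND1_cKO and 799, 593 and 369 CPM in controls. Gpnmb and Trem2 lay above every control in all ND1_cKO libraries. Cd68, Mrc1 and Csf1r overlapped the controls, and Csf1r had a negative log2 fold change (-0.10). None of these passed in edgeR. Endothelial markers summed to less in ND1_cKO, with between 2410 and 2816 CPM, than in controls, with between 4090 and 4576 CPM. The part of these cell markers in the results below was not tested.

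Of the 36 genes, 35 were kept by the count filter for the genotype test, and only Adam19 passed that test. Calls were made by the quasi-likelihood F test of edgeR at a Benjamini-Hochberg adjusted p below 0.05 over all 16548 genes tested. The test called 2.42% of all genes, 1.14% as higher in ND1_cKO and 1.28% as lower, so 1 of 35 is a share near that of the whole table. None (0) of the 35 passed as lower by edgeR; at an unadjusted p below 0.05 there were 12 higher and 1 lower (37.1%, beside 21.4% of all genes). DESeq2 called 6 higher and 1 lower, 20.0% of the 35, beside 11.0% of the genes it adjusted (5.73% higher and 5.29% lower). Every ND1_cKO library lay above every control library in 8 of the 35 and below in 4, beside 14.1% of all genes in each direction and 28.2% in either. A log2 fold change over 1 in size was seen in 9 of the 35 (25.7%, beside 7.25% of all genes). Log2 fold changes of ND1_cKO over control ranged from -0.92 to 2.33 with a median of 0.40, while the median over all genes tested was 0.01. They were positive in 23 of the 35 (65.7%, beside 51.9% of all genes). ND1_cKO replicate 3 decided much of that median, which was 0.14 without it. The shares of all genes given here also stand beside the counts of each smaller group and list below.

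**Figure D1:**
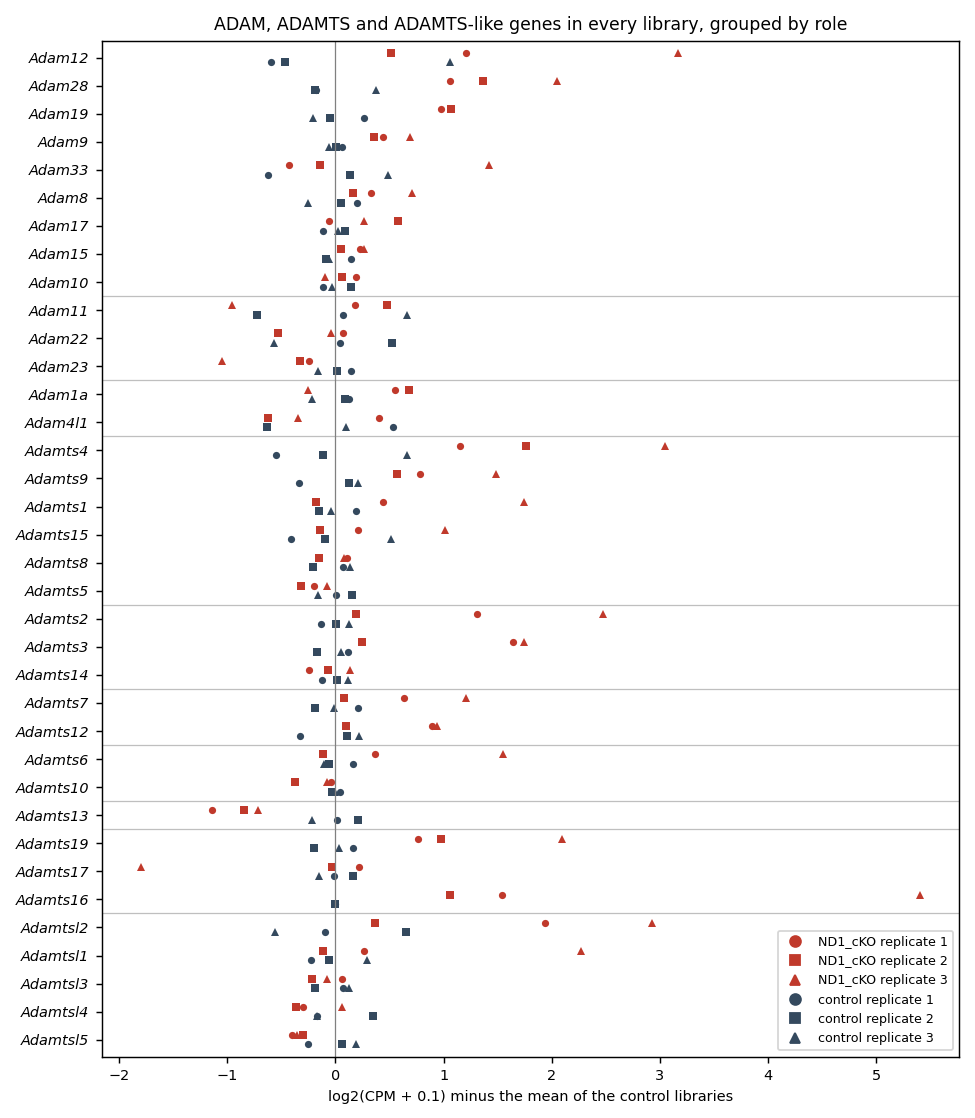
Level of the 36 genes in each library, as log2(CPM + 0.1) minus the mean of the control libraries, with ND1_cKO points above control points in each row and lines between role groups. Adam19 and Adamts13 have all 3 ND1_cKO libraries close together and apart from the controls, while for Adam12, Adamts2 and Adamts16 the triangle of ND1_cKO replicate 3 lies far to the right.

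Among the 9 membrane ADAM genes whose proteins have protease activity, Adam19 rose and the remaining 8 did not pass. Adam19 encodes meltrin beta, which is known to release neuregulin and is needed for heart development in mouse. It gave 227, 242 and 242 CPM in ND1_cKO replicates 1, 2 and 3, against 138, 111 and 99.4 CPM in control replicates 1, 2 and 3. The ND1_cKO libraries were nearly equal and all lay well above the highest control. The mean was 237 ± 8.83 CPM in ND1_cKO and 116 ± 20 CPM in controls (SD, n = 3 rats each), a 2.04-fold difference (log2 fold change 1.03 ± 0.13 SE, edgeR adjusted p = 0.019), so the study's further threshold of a log2 fold change over 1 was also met. Adam19 passed in 11 of 14 alternative fits. Leaving out ND1_cKO replicate 1 gave a log2 fold change of 1.05 (adjusted p = 0.0544), leaving out control replicate 2 gave 0.99 (0.139) and leaving out control replicate 3 gave 0.93 (0.0816), so the call was lost in these 3 fits. They also called fewer genes of the whole table, 0.137%, 0% and 0.0534%, while the fits that left out ND1_cKO replicate 2, ND1_cKO replicate 3 or control replicate 1 called 2.15%, 2.95% and 1.09%.

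The promoters of Adam19, the one gene that passed, and of Adam12, whose level depended most on a single ND1_cKO rat among the membrane ADAM genes, are shown for comparison. Each is the 250 bases before the start of the gene, 5′ to 3′, from RefSeq on rat build GRCr8, at chr10:30992511-30992760, plus strand for Adam19 and chr1:198443681-198443930, minus strand for Adam12. Capitals mark matches, on either strand, to any of 5 motifs. The AP-1 motif was searched as TGANTCA. The GC box was searched with the letters GGGCGG and is a binding site of SP1. CCAAT was searched as itself. The RUNX motif was read as TGTGGT, and the motif of TEAD factors as GGAATG.
Adam19: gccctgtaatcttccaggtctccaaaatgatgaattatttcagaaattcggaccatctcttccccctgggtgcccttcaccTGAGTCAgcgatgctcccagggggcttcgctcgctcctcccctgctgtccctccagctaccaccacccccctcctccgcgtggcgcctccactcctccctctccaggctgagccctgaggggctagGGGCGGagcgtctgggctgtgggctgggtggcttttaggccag
Adam12: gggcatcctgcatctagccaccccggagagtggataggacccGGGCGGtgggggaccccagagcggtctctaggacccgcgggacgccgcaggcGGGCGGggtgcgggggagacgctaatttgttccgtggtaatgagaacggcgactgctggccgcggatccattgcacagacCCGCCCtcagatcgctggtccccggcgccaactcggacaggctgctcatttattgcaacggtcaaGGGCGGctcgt
Adam19 has 1 AP-1 match and 1 GC box, and Adam12 has 4 GC boxes and no match to the other motifs. By symbol, 26 of the 36 genes matched the promoter table, with 36 windows in all since a gene can have several starts. The window of Adam19 was the only 1 of these 36 with an AP-1 match (2.78%), while 6.34% of all 33469 windows had one. GC boxes were in 52.8% of the 36 windows and in 30.5% of all windows, and median GC content was 62% in the 36 and 51.2% in all. CCAAT was in 41.7% of the 36 and 34.0% of all windows, RUNX in 2.78% and 14.5%, and TEAD in 2.78% and 12.1%. A match describes the letters only and shows neither binding nor a cause.

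Adam9, which encodes meltrin gamma, a protease known to shed heparin-binding EGF, gave 223, 210 and 264 CPM in ND1_cKO replicates 1, 2 and 3, against 171, 164 and 157 CPM in controls. All ND1_cKO libraries were above all controls by a modest step (1.42-fold, log2 0.50 ± 0.10), at an adjusted p of 0.0539. Adam28, a protease known from lymphocytes and epithelium in mouse and human, gave 3.54, 4.40 and 7.13 CPM in ND1_cKO, against 1.44, 1.43 and 2.17 CPM in controls. Those groups did not overlap either, and the 3.00-fold difference (log2 1.58 ± 0.34) had an adjusted p of 0.0596. B and plasma cell markers, listed because Adam28 is known from B cells, summed to between 854 and 1422 CPM in ND1_cKO and between 1567 and 1866 CPM in controls. Most of that sum was Jchain, and all 6 markers had negative log2 fold changes. Which cells held the Adam28 transcripts was not tested. DESeq2 called both Adam9 (adjusted p = 0.00122) and Adam28 (0.000363).

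Adam12 encodes meltrin alpha, known from muscle and stromal progenitors activated by injury in mouse. It gave 14.7, 9.07 and 57.6 CPM in ND1_cKO replicates 1, 2 and 3, against 4.14, 4.56 and 13.3 CPM in controls. The groups overlapped, because control replicate 3 was above ND1_cKO replicate 2, and ND1_cKO replicate 3 was 4.85 times the mean of the other ND1_cKO libraries. The log2 fold change of 1.90 ± 0.83 (adjusted p = 0.26) was 0.70 without that library. Adam33, linked to asthma in human and known from airway mesenchyme, gave 5.51, 6.74 and 20.2 CPM in ND1_cKO, against 4.82, 8.21 and 10.5 CPM in controls. Only ND1_cKO replicate 3 stood out, and the log2 fold change was 0.47 with it and -0.36 without it. Adam8, known from myeloid leukocytes, gave 61.4, 54.8 and 79.8 CPM in ND1_cKO and 56.3, 50.7 and 41.0 CPM in controls, overlapping at 0.40 ± 0.17 (adjusted p = 0.23).

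The principal sheddases Adam10 and Adam17 did not pass. Adam10, which makes the activating cut in Notch receptors and sheds cadherins, gave 188, 172 and 154 CPM in ND1_cKO replicates 1, 2 and 3, against 152, 183 and 162 CPM in controls (log2 0.05 ± 0.11, adjusted p = 0.838). Adam17, which releases TNF and most EGF receptor ligands, gave 178, 277 and 222 CPM in ND1_cKO, against 171, 197 and 188 CPM in controls (0.28 ± 0.16, adjusted p = 0.356). In both genes the genotypes overlapped. Adam15, a membrane protease with an integrin-binding disintegrin domain, averaged 100 ± 7.5 CPM in ND1_cKO and 88.4 ± 8.07 CPM in controls (0.18 ± 0.10, adjusted p = 0.332). Log2 fold changes of the 9 genes were all positive, with a median of 0.47, except that Adam10 was at -0.04 when ND1_cKO replicate 1 was left out and -0.01 when control replicate 1 was, and Adam33 was negative without ND1_cKO replicate 3 and with library weights (-0.13). Every scaling tried left the 9 signs as they were.

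The ADAM genes without a working protease site, Adam11, Adam22 and Adam23, and the testis-type genes Adam1a and Adam4l1 did not pass. Adam23, a neuronal receptor of LGI proteins in mouse and human, gave 3.41, 3.21 and 1.91 CPM in ND1_cKO, against 4.48, 4.10 and 3.61 CPM in controls. All ND1_cKO libraries lay below all controls (log2 -0.52 ± 0.28, adjusted p = 0.328). Adam22, a receptor of the same ligands, averaged 1.28 ± 0.288 CPM in ND1_cKO and 1.49 ± 0.575 CPM in controls, and Adam11, another relative, 0.428 ± 0.235 and 0.461 ± 0.254 CPM in the same order. The log2 fold change of Adam11 was -0.09 ± 0.63, and 0.29 without ND1_cKO replicate 3 or 0.37 without control replicate 3. Adam1a, a sperm fertilin subunit in rodents, averaged 2.80 ± 0.909 CPM in ND1_cKO and 2.14 ± 0.277 CPM in controls, and Adam4l1 0.311 ± 0.159 and 0.373 ± 0.181 CPM in the same order. In these 4 the genotypes overlapped.

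**Figure D2:**
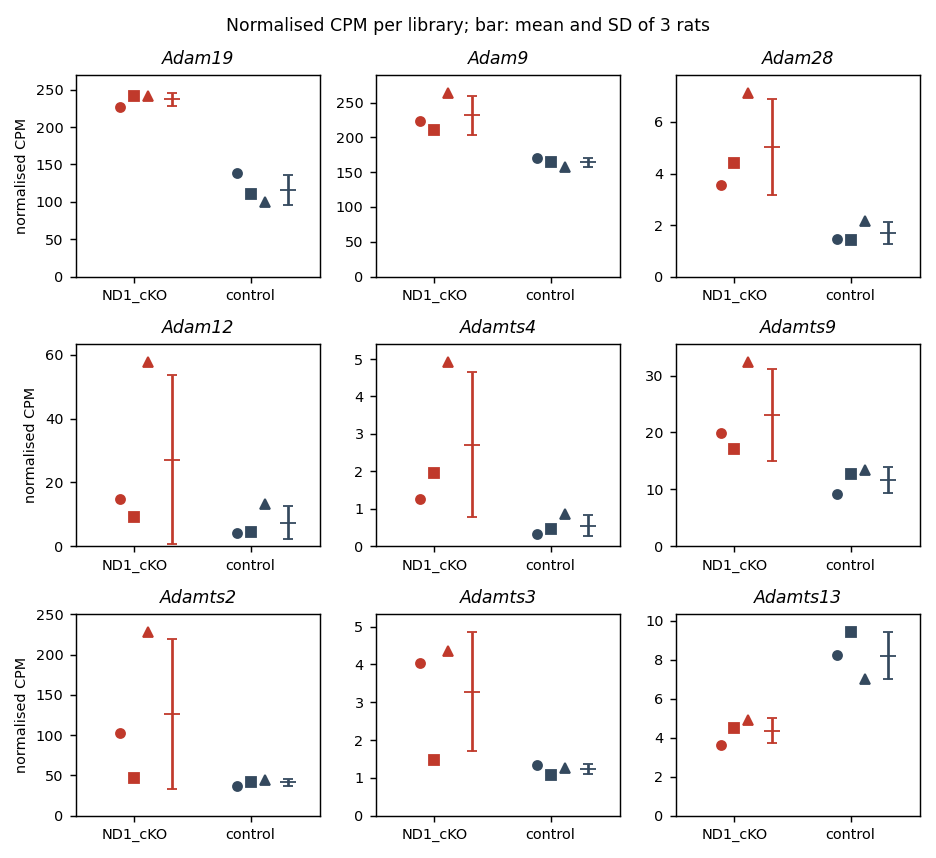
Normalised CPM of 9 genes in each library (vertical axes start at 0), ND1_cKO left of control, with the mean and SD of 3 rats beside the points. Adam19 separates with little spread at 237 against 116 CPM on average, whereas Adam12, Adamts2 and Adamts4 have 1 high ND1_cKO library, and Adamts13 is lower in ND1_cKO at 4.35 against 8.21 CPM.

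Of the 6 ADAMTS genes known for cleaving proteoglycans such as aggrecan and versican, 0 passed with edgeR (2 at an unadjusted p below 0.05, and 2 with DESeq2). Adamts4, aggrecanase-1, had the highest fold change of all 35 tested genes. It gave 1.25, 1.96 and 4.91 CPM in ND1_cKO replicates 1, 2 and 3, against 0.315, 0.459 and 0.861 CPM in controls. The lowest ND1_cKO library was above the highest control, at a low level, and the mean was 5.01-fold higher (log2 2.33 ± 0.63, adjusted p = 0.097, DESeq2 0.00343), or 1.57 on the log2 scale without ND1_cKO replicate 3. Adamts9, which cleaves versican, gave 19.8, 17.1 and 32.3 CPM in ND1_cKO, against 9.10, 12.6 and 13.3 CPM in controls. Its groups did not overlap (1.98-fold, log2 0.99 ± 0.27, adjusted p = 0.0975, DESeq2 0.00576).

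Adamts1, a versican-cleaving protease of vessels and ovary in mouse, gave 86.0, 55.8 and 212 CPM in ND1_cKO, against 72.0, 57.0 and 61.5 CPM in controls. ND1_cKO replicate 3 alone was far above the rest and ND1_cKO replicate 2 was below every control (log2 0.89 ± 0.48, adjusted p = 0.345, and 0.15 without replicate 3). Adamts15, another proteoglycan-cleaving member, gave 61.3, 47.8 and 107 CPM in ND1_cKO and 39.8, 49.4 and 75.4 CPM in controls. ND1_cKO replicate 3 was again the highest, but control replicate 3 was above the other ND1_cKO libraries (0.40 ± 0.36, and -0.01 without ND1_cKO replicate 3). Adamts5, aggrecanase-2, averaged 7.14 ± 0.6 CPM in ND1_cKO and 8.23 ± 0.911 CPM in controls (-0.20 ± 0.16). Adamts8, which is abundant in lung in mouse, averaged 45.2 ± 4.32 CPM in ND1_cKO and 44.8 ± 5.34 CPM in controls, with a log2 difference of 0.01 ± 0.12 whose sign turned when only total counts set the scale (-0.02), and also without ND1_cKO replicate 1 (-0.05), ND1_cKO replicate 3 (-0.02) or control replicate 2 (-0.08).

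The procollagen N-propeptidases, which remove the amino-terminal propeptide so that collagen can form fibrils, also had 0 calls with edgeR (2 of 3 at an unadjusted p below 0.05, and 1 with DESeq2). Adamts2, the main one for fibrillar collagens of skin and tendon, gave 102, 46.7 and 228 CPM in ND1_cKO replicates 1, 2 and 3, against 37.3, 41.2 and 44.8 CPM in controls. ND1_cKO replicate 2 was just above the highest control and replicate 3 was 3.07 times the mean of the others. The log2 fold change was 1.61 ± 0.55 (adjusted p = 0.171), 0.85 without replicate 3 and 1.99 without replicate 2, where it passed (adjusted p = 0.0482). Adamts3, which also activates VEGFC in lymphatic growth, gave 4.03, 1.47 and 4.35 CPM in ND1_cKO, against 1.34, 1.08 and 1.27 CPM in controls. Again ND1_cKO replicate 2 was next to the controls (1.41 ± 0.43, adjusted p = 0.126, DESeq2 0.0211). Adamts14 averaged 7.19 ± 0.965 CPM in ND1_cKO and 7.49 ± 0.625 CPM in controls (-0.06 ± 0.17).

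Adamts4 and Adamts2 had the largest fold changes of the proteoglycan and procollagen groups that did not overlap, and their promoter windows are printed for that reason, taken and marked as for Adam19. Adamts4 lies at chr13:86202761-86203010, plus strand, and Adamts2 at chr10:35421780-35422029, plus strand.
Adamts4: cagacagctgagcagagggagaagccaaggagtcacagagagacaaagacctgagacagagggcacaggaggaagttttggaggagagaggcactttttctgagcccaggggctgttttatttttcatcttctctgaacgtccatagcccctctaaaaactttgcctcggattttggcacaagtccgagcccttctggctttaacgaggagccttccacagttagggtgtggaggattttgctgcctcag
Adamts2: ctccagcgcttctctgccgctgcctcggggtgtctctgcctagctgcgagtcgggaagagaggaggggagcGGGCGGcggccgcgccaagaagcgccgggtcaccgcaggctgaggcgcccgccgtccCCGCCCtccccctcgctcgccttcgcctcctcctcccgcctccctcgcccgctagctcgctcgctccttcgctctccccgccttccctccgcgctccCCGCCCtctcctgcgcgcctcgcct
Adamts4 has no match to the 5 motifs and a GC content of 51.2%, close to the median of all windows. Adamts2 has 3 GC boxes and a GC content of 75.6%.

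None of the substrates these proteases are known for passed in edgeR, though most had positive fold changes. Of 14 tested matrix substrates, 12 had positive log2 fold changes, beside 51.9% positive among all genes tested. The median of the 14 was 1.33, and 0 passed. At an unadjusted p below 0.05 there were 9 higher and 1 lower, beside 21.4% of all genes. DESeq2 called 7 higher and 1 lower, beside 11.0% of the genes it adjusted. Of these substrates, Col1a1 and Col3a1 are also on the list of activated fibroblast markers, whose sum was higher in the same libraries. Versican (Vcan) gave 54.9, 35.4 and 102 CPM in ND1_cKO replicates 1, 2 and 3, against 18.9, 10.8 and 11.7 CPM in controls. No library overlapped (log2 2.21 ± 0.43, adjusted p = 0.0551, and 0.0449 without ND1_cKO replicate 3). Fibronectin (Fn1) gave 1993, 1142 and 3542 CPM in ND1_cKO, against 738, 584 and 533 CPM in controls (1.85 ± 0.40, adjusted p = 0.0664). The median of the 14 was 0.73 without ND1_cKO replicate 3, and Vcan, Fbn1 and Thbs1 then passed as higher. Aggrecan (Acan), the substrate that gave the aggrecanases their name, had at most 0.300 CPM in any library and was not tested.

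Adamts7 and Adamts12, both able to cleave cartilage oligomeric matrix protein, had similar positive fold changes and did not pass. Adamts7 gave 14.4, 9.75 and 21.4 CPM in ND1_cKO, against 10.7, 8.07 and 9.12 CPM in controls (log2 0.70 ± 0.28, adjusted p = 0.214). Adamts12 gave 30.1, 17.2 and 31.0 CPM in ND1_cKO, against 12.8, 17.4 and 18.8 CPM in controls (0.68 ± 0.25, adjusted p = 0.186). In both, ND1_cKO replicate 2 lay within the range of the controls. Comp itself averaged under 1 CPM, at 0.491, 0.244 and 0.337 CPM in ND1_cKO and 0.498, 0.297 and 0.207 CPM in controls.

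Adamts13, the protease that trims von Willebrand factor in plasma, had the lowest fold change of the 35. It gave 3.65, 4.48 and 4.91 CPM in ND1_cKO replicates 1, 2 and 3, against 8.23, 9.42 and 6.99 CPM in controls. Every ND1_cKO library was below every control, at 0.529 times the control mean (log2 -0.92 ± 0.20, adjusted p = 0.0586; DESeq2 0.000658). ND1_cKO replicate 3 lay nearest to the controls, and the log2 fold change was -1.02 without it. Von Willebrand factor (Vwf), an endothelial gene, gave 563, 592 and 653 CPM in ND1_cKO, against 771, 775 and 948 CPM in controls (-0.46 ± 0.12, adjusted p = 0.0852), in the libraries in which the sum of endothelial markers was also lower. The span of Adamts13 overlaps Cacfd1, whose own level was higher in ND1_cKO, at 33.4, 32.0 and 30.0 CPM against 26.2, 25.1 and 26.5 CPM in controls. Since the strand setting of the counting is not given in the sources used here, reads in such an overlap could be placed with either gene.

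Adamts6 and Adamts10, which act on fibrillin microfibrils, went apart. Adamts6 gave 6.46, 4.59 and 14.8 CPM in ND1_cKO, against 5.61, 4.78 and 4.65 CPM in controls, high in ND1_cKO replicate 3 alone (log2 0.78 ± 0.42, and 0.14 without it). Adamts10 gave 76.2, 60.4 and 74.1 CPM in ND1_cKO, against 80.4, 76.5 and 78.0 CPM in controls, with all ND1_cKO libraries lower by a small step (-0.16 ± 0.10, adjusted p = 0.418). Adamts19, known from heart valves in human, gave 0.409, 0.489 and 1.18 CPM in ND1_cKO and 0.236, 0.162 and 0.207 CPM in controls, with no overlap at a very low level (1.76 ± 0.55, adjusted p = 0.133).

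Adamts16, a candidate gene of a rat blood pressure locus, was not detected in any control library. It had 7, 4 and 148 counts in ND1_cKO replicates 1, 2 and 3, against 0, 0 and 0 in controls. It reached the minimum of 60 counts through ND1_cKO replicate 3 alone. A fold over all ND1_cKO libraries would rest almost wholly on replicate 3, through which the gene was included, so none is given. The one-sided 95.0% Poisson limit for a count of 0 is 3 counts over the control group. ND1_cKO replicates 1 and 2 together had 11 counts, a level 5.20 times that limit. The limit covers counting error in the controls only. It covers neither the error of the 11 counts nor the spread between rats. With high counts in only 1 library, Adamts16 was removed by the filter of the main edgeR test, and with no filter its adjusted p was 0.367. Adamts17, mutated in a Weill-Marchesani-like syndrome in human, showed the reverse in the same rat, with 14.1, 11.8 and 3.40 CPM in ND1_cKO and 12.0, 13.5 and 10.9 CPM in controls. ND1_cKO replicate 3 was the low one, and the log2 fold change of -0.32 ± 0.47 was 0.08 without it.

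Of the 5 ADAMTS-like genes, 0 passed with edgeR or DESeq2, and 1 had an unadjusted p below 0.05. That was Adamtsl2, whose product binds fibrillin and the latent TGF-beta binding protein LTBP1 and is mutated in geleophysic dysplasia in human. It gave 31.3, 10.5 and 62.2 CPM in ND1_cKO replicates 1, 2 and 3, against 7.58, 12.8 and 5.47 CPM in controls. ND1_cKO replicate 2 fell among the controls while the other ND1_cKO libraries were well above (4.01-fold, log2 2.00 ± 0.67, adjusted p = 0.167). Adamtsl1, punctin, gave 4.06, 3.10 and 16.6 CPM in ND1_cKO, against 2.86, 3.21 and 4.13 CPM in controls, and was at 1.22 ± 0.64 with all libraries and 0.07 without ND1_cKO replicate 3. Adamtsl3 averaged 21.8 ± 2.12 CPM in ND1_cKO and 23.0 ± 2.58 CPM in controls (-0.08 ± 0.12). Adamtsl4, mutated in displaced lenses in human, averaged 28.5 ± 4.76 and 32.9 ± 7.18 CPM in the same order (-0.21 ± 0.18). Adamtsl5 averaged 6.66 ± 0.233 CPM in ND1_cKO and 8.61 ± 1.33 CPM in controls, every ND1_cKO library below every control (-0.37 ± 0.17, adjusted p = 0.253).

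The genes differed in how evenly the 3 ND1_cKO rats shared a level. ND1_cKO replicate 3 was the highest of the 6 libraries for 20 of the 35 tested genes (57.1%, beside 23.8% of all genes tested), and it was at least 2-fold above the mean of the other ND1_cKO libraries for 9 (25.7%, beside 5.62%). The order replicate 3 over 1 over 2 held for 16 of 35 (45.7%, beside 21.4% of all genes). Summed markers of activated fibroblasts, mesothelium, smooth muscle, pericytes, mast cells and red cells had that order too. Mesothelial markers, for instance, summed to 612, 580 and 932 CPM in ND1_cKO replicates 1, 2 and 3 (349, 343 and 503 CPM in controls). Krt19, the largest part in every library, was at 512, 495 and 438 CPM (293, 279 and 321 CPM in controls). Of the 5 mesothelial markers only Krt19 passed in edgeR (log2 0.70 ± 0.10, adjusted p = 0.0295), and it was lowest in replicate 3 among ND1_cKO libraries. Msln, Upk3b, Wt1 and Lrrn4 were each highest in ND1_cKO replicate 3 and overlapped the controls. Smooth muscle markers summed to 825, 696 and 1600 CPM in ND1_cKO (1265, 901 and 847 CPM in controls). Mast cell markers summed to 277, 203 and 540 CPM in ND1_cKO (267, 228 and 238 CPM in controls). Kit was lower in ND1_cKO, at 168, 126 and 145 CPM (237, 201 and 203 CPM in controls). Cpa3, Cma1, Fcer1a and Ms4a2 were above every control in all ND1_cKO libraries, highest in replicate 3, without passing in edgeR. The genes that did not follow the order replicate 3 over 1 over 2 include Adam19 and Adamts13.

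**Figure D3:**
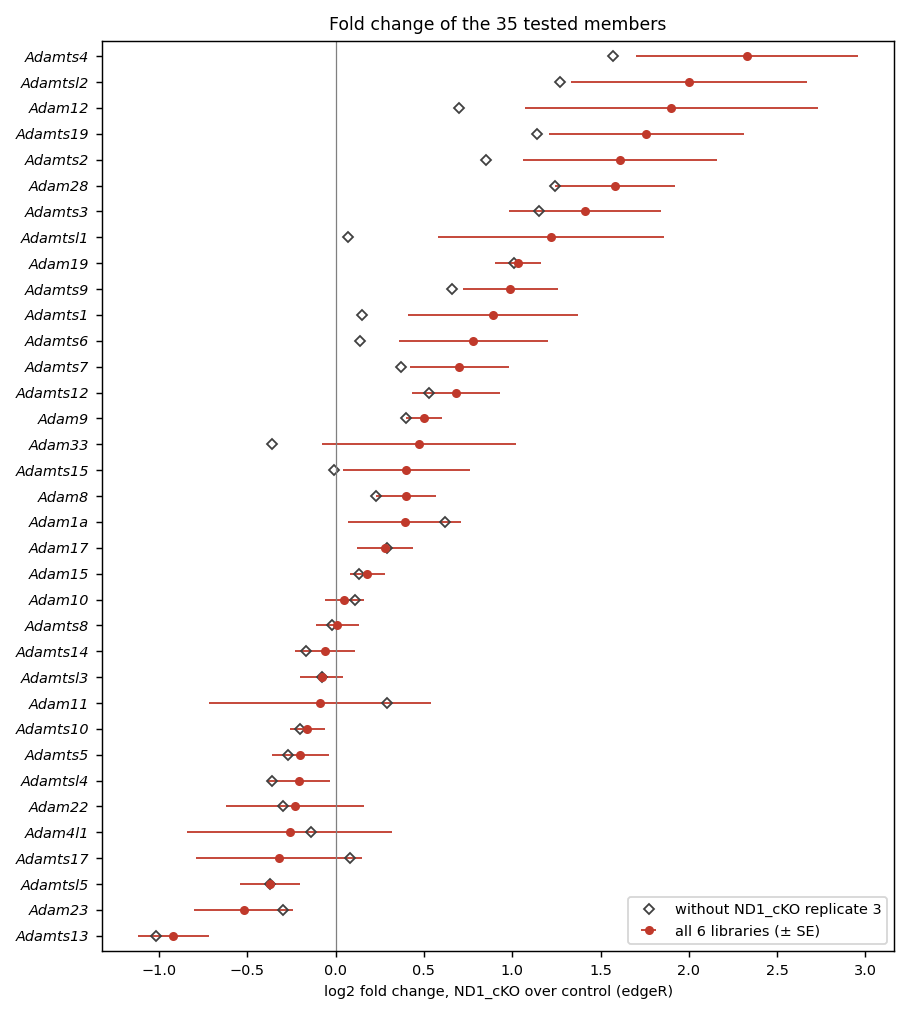
Log2 fold change of ND1_cKO over control for the 35 tested genes, with all 6 libraries (filled circles, bars are SE) and without ND1_cKO replicate 3 (open diamonds). Adam19 stays at 1.03 and 1.01 and Adamts13 at -0.92 and -1.02, while Adam12 moves from 1.90 with all libraries to 0.70 and Adamtsl1 from 1.22 to 0.07.

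Among the inhibitors of these proteases, A2m rose and Reck fell, out of 6 tested, beside 2.42% of all genes called in either direction. A2m encodes alpha-2-macroglobulin, a secreted trap for proteases, and gave 19.7, 6.00 and 26.4 CPM in ND1_cKO, against 0.865, 0.135 and 0.482 CPM in controls (log2 5.12 ± 0.79, adjusted p = 0.0368). Reck, a membrane-anchored inhibitor, gave 74.4, 70.7 and 71.0 CPM in ND1_cKO, against 89.2, 97.4 and 104 CPM in controls (-0.43 ± 0.08, adjusted p = 0.0468). Both separated completely, A2m by far more than Reck. Timp3, the inhibitor of ADAM17 and the aggrecanases, gave 2421, 960 and 1232 CPM in ND1_cKO and 1194, 1026 and 971 CPM in controls, high in ND1_cKO replicate 1 alone (0.53 ± 0.33, adjusted p = 0.406). Timp1 gave 63.9, 44.2 and 145 CPM in ND1_cKO and 29.1, 17.3 and 31.7 CPM in controls (1.70 ± 0.48, adjusted p = 0.122). A2m passed in 7 of 14 alternative fits and Reck in 6, with adjusted p up to 0.147 for A2m and 0.165 for Reck. For A2m the call was lost without ND1_cKO replicate 1 or any 1 of the controls, and for Reck without any 1 of the 6 libraries.

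The carriers that bring Adam10 and Adam17 to the surface had 0 of 9 past the test with edgeR and 0 with DESeq2 (2 at an unadjusted p below 0.05), and a median log2 fold change of -0.07. Rhbdf2, the iRhom2 partner of ADAM17 in leukocytes, gave 39.6, 43.0 and 43.2 CPM in ND1_cKO, against 37.5, 36.2 and 30.0 CPM in controls (0.28 ± 0.10, adjusted p = 0.187). Tspan10 was under 1 CPM in every library (2.10 ± 0.59, adjusted p = 0.106). Convertases, glycosyl-transferases and clearance receptors, which ripen or remove the proteases, had 0 of 9 past edgeR and 0 past DESeq2 (3 at an unadjusted p below 0.05), with Lrp1, the receptor that takes up secreted ADAMTS proteins, at 0.37 ± 0.12 (adjusted p = 0.15) and Furin, which removes their propeptides, at 0.20 ± 0.08 (0.196). Without ND1_cKO replicate 3, Pcsk6, another convertase, passed as lower (log2 -0.85, adjusted p = 0.0263).

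Of 24 tested membrane proteins known to be shed, 2 rose and 2 fell, beside 1.14% and 1.28% of all genes. The median log2 fold change of the 24 was 0.03. The EGF receptor ligand gene Areg gave 18.2, 12.4 and 28.3 CPM in ND1_cKO, against 4.25, 2.40 and 2.51 CPM in controls (log2 2.68 ± 0.37, adjusted p = 0.0295). Ereg, the related ligand epiregulin, gave 3.63, 2.25 and 3.31 CPM in ND1_cKO, against 0.944, 0.513 and 0.447 CPM in controls (2.25 ± 0.39, adjusted p = 0.0392). Both are ligands that ADAM17 is known to release. Notch1, an ADAM10 substrate, gave 134, 135 and 124 CPM in ND1_cKO, against 173, 193 and 200 CPM in controls (-0.53 ± 0.08, adjusted p = 0.0357). Cdh5, the cadherin of endothelial junctions, gave 432, 459 and 427 CPM in ND1_cKO, against 613, 705 and 726 CPM in controls (-0.63 ± 0.10, adjusted p = 0.0321), and it is itself one of the endothelial markers that were lower together. Nrg1, the neuregulin gene whose product ADAM19 is known to shed, gave 16.7, 15.7 and 24.0 CPM in ND1_cKO and 14.5, 12.5 and 10.3 CPM in controls (0.59 ± 0.20, adjusted p = 0.158). Without ND1_cKO replicate 1, control replicate 2 or control replicate 3 none of Areg, Ereg, Notch1 and Cdh5 passed, and Notch1 was also lost without ND1_cKO replicate 2. These are transcript levels, and no shedding was measured. Neither relative of the ADAMTS-like genes passed, with Thsd4 at -0.68 ± 0.20 (adjusted p = 0.118) and Papln at 0.83 ± 0.34 (0.216), though both had an unadjusted p below 0.05 and DESeq2 called 1 of them, as lower. Adamdec1, the decysin gene, had 13 counts in all and was not tested.

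**Figure D4:**
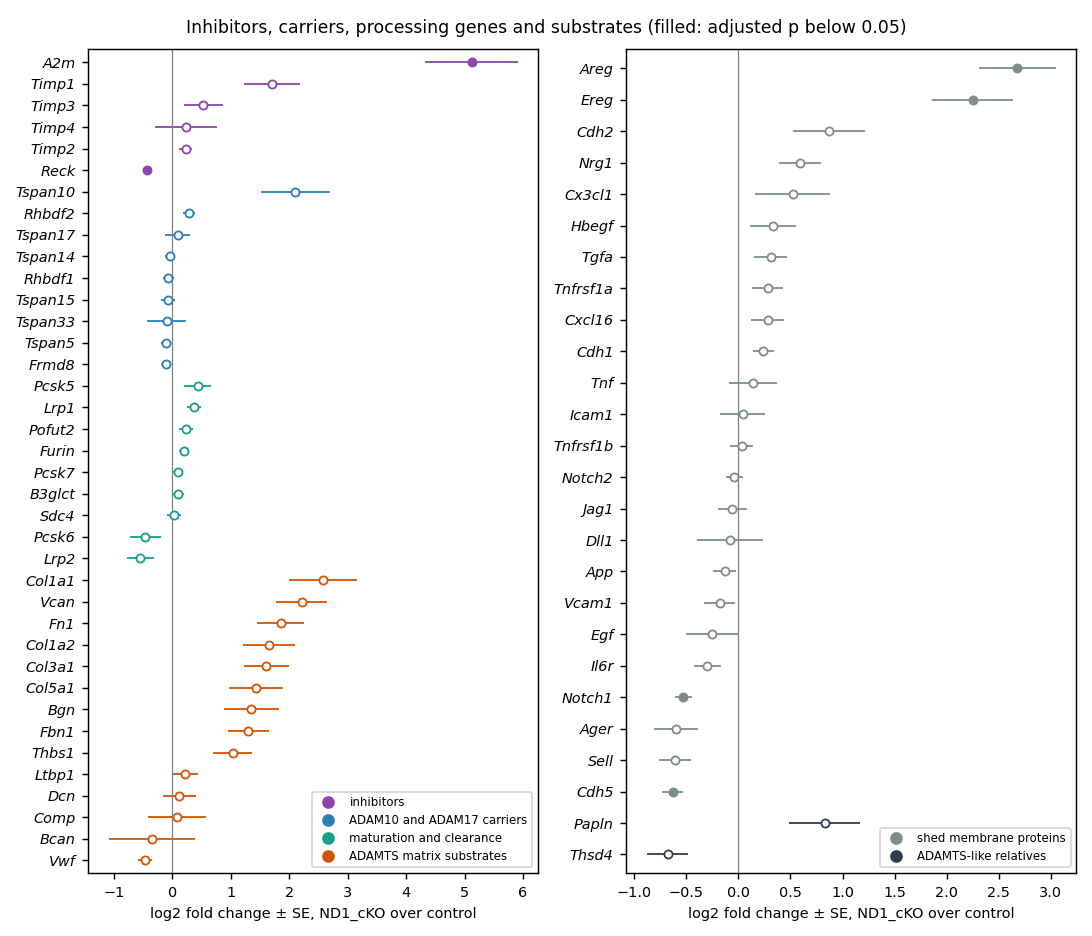
Log2 fold change (± SE, ND1_cKO over control) of inhibitors, carriers, processing genes and matrix substrates (left) and of shed membrane proteins and ADAMTS-like relatives (right). Filled circles passed at an adjusted p below 0.05, namely A2m, Areg and Ereg above 0 and Reck, Notch1 and Cdh5 below 0, and the matrix substrates reach 2.58 without passing.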

How the data were processed

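The values deposited by the authors are whole-number counts of reads for each gene symbol, and each library's column was found by the column name that its sample description gives, leaving 0 columns over. The submitters' processing notes list HTSeq, HISAT2, fastp, R 4.3.3 and DESeq2 without their order. What each did, and the genome build, annotation and strand setting, is not given in the sources used here. Each library is a separate rat per the series description. Of the 36 genes, 5 overlap another protein-coding gene in RefSeq GRCr8.

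Genotypes were compared in edgeR 4.0.16 by its two-sided quasi-likelihood F test, with robust dispersions, the filterByExpr filter, TMM scaling and no covariate. Benjamini-Hochberg adjustment ran over all 16548 genes tested. The SE was taken as the size of the log2 fold change divided by the root of F. Alternatives used DESeq2 1.42.0, limma 3.58.1 (voom, with and without library weights), other scalings and filters, a replicate block, and 1 library left out. In counts simulated for this comparison over 16355 genes, edgeR found 71 of 100 genes with a 2-fold difference. It found 97 of 100 with a 4-fold difference and made 8 false calls. The simulated counts took their spread from the dispersion trend over all genes, and no library stood apart as ND1_cKO replicate 3 did. Genes of very low level were not among the changed ones. These shares therefore do not cover genes that vary more between rats than the trend.

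Genes given library by library were to be those with adjusted p below 0.05, those without overlap at a log2 fold change of at least 0.5 in size, the 3 highest and 3 lowest fold changes, and the 2 with most counts in each role; of the partner genes, those past the test and the 2 with the lowest p in each list. Adam8, Adam10, Adam11, Adam15, Adam33, Adamts5, Adamts8, Adamtsl1 and the further partner genes with values were added after their values were seen. Members and lists were chosen with earlier results of these data known. No 2 libraries agreed within sampling noise (chi-square per degree of freedom at least 23.7).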

Additional observations from a re-analysis of the deposited data

How the results depend on the processing

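Adam19 was higher in ND1_cKO in every alternative fit, with a log2 fold change from 0.93 to 1.17, and the study's fold threshold was missed with total counts only (0.99) and without control replicate 2 or 3. Over all genes, edgeR called 188 as higher and 212 as lower; DESeq2 called 977 and 902, library weights 474 and 490, and with 1 library left out edgeR called from 0 to 250 and from 0 to 245. The 1 gene of the families called higher was 3 with no filter, 6 with DESeq2, 2 with library weights and from 0 to 3 with 1 library left out; the 0 called lower by edgeR (1 at an unadjusted p below 0.05) was 1 with DESeq2 and 1 with library weights. The partner genes called, 3 higher and 3 lower, were 11 and 7 with DESeq2, 6 and 5 with library weights, and from 0 to 8 and from 0 to 3 with 1 library left out. Replicate numbers are shared across genotypes. Same-numbered libraries deviated together with correlations of 0.17, 0.02 and 0.13, and differently numbered ones with correlations from -0.15 to 0.01. With 3 libraries per genotype these values cannot decide whether same-numbered libraries are pairs, and the main fit does not treat them as such. With the replicate block edgeR called 145 higher and 117 lower over all genes. It called 2 of the families (Adam19 and Adam12) and 3 higher and 1 lower among partners. The median log2 fold change of the families, 0.40, ranged from 0.14 without ND1_cKO replicate 3 to 0.50. Of the genes given with values, the log2 fold change turned sign in at least 1 alternative for 9 members and Comp, none of which passed in any fit. With library weights it was 0.16 for Adam11, -0.13 for Adam33 and 0.07 for Adam4l1, and with total counts only -0.02 for Adamts8. With 1 library left out it ranged from -0.04 to 0.12 for Adam10, -0.47 to 0.37 for Adam11, -0.48 to 0.08 for Adam22, -0.36 to 0.77 for Adam33, -0.75 to 0.15 for Adam4l1, -0.17 to 0.02 for Adamts14, -0.01 to 0.69 for Adamts15, -0.69 to 0.08 for Adamts17, -0.08 to 0.08 for Adamts8 and -0.22 to 0.49 for Comp. Where no cause is named, the cause was not tested. Precision rests on 3 rats per genotype and, below about 1 CPM, on few counts.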

Other observations

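Adamts1 and Adamts5 lie next to each other among protein-coding genes in RefSeq GRCr8, and their log2 fold changes of ND1_cKO over control were 0.89 ± 0.48 and -0.20 ± 0.16. Adamts15 and Adamts8, also neighbours, were at 0.40 ± 0.36 and 0.01 ± 0.12. In both pairs ND1_cKO replicate 3 was more than the other ND1_cKO libraries for the first gene, 2.98 and 1.97 times their mean, and close to them for the second, 1.13 and 1.07 times. Whether these differences between neighbours exceed the spread between rats was not tested.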
